A study of Mus musculus with 15 samples.

Results

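The matrix metalloproteinase genes Mmp3, Mmp8, Mmp9, Mmp10, Mmp12, Mmp13, Mmp14 and Mmp19 were followed in mouse pre-B cells that were turned into macrophage-like cells. The 8 genes were taken from a list of names, drawn up with earlier results of these data known, out of 22350 protein-coding genes annotated on chromosomes 1 to 19 and X (GENCODE vM1 annotation, genome build mm9). Of the 8, 5 lie in a cluster of 10 family genes on chromosome 9, in the order Mmp13, Mmp12, Mmp1b, Mmp3, Mmp1a, Mmp10, Mmp8, Mmp27, Mmp20 and Mmp7. The other 3 stand alone, Mmp9 on chromosome 2, Mmp14 on chromosome 14 and Mmp19 on chromosome 10.

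The C10 line was made from HAFTL, a line of mouse pre-B cells, and carries C/EBPαER-GFP, the myeloid transcription factor C/EBPα joined to an estrogen receptor domain, with GFP as a marker. Cells were induced with β-estradiol, at 100 nM in the labels while the paper's methods give another unit, which brings the fusion protein into the nucleus, and grown with IL-3 and CSF-1 at 10 nM; control cells received the solvent, ethanol. The labels do not say whether the 0 h cells received ethanol, IL-3 or CSF-1. ChIP-seq, the sequencing of DNA bound to immunoprecipitated chromatin, covered the histone marks H3K27Ac, H3K4Me1 and H3K27Me3 at 0, 3, 12, 24 and 48 h post-induction (hpi), 15 libraries in all, from this 1 line, with every group carrying the transgene. Each mark and time had 1 library, so no test between times was possible, and the intervals given cover counting error only.

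Matrix metalloproteinases are zinc-dependent enzymes that cut collagens, elastin and other proteins outside the cell. Most are secreted as inactive precursors and are switched on by other proteases, and TIMP proteins block them. Macrophages and neutrophils are known sources, Mmp12 as the macrophage elastase, Mmp8 as the neutrophil collagenase and Mmp9 as a gelatinase of both. Among the marks, H3K27Ac is found on active promoters and enhancers, H3K4Me1 on primed and active enhancers, and H3K27Me3 on regions repressed by Polycomb proteins.

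To show what lies at starts with large and with small H3K27Ac changes, the 250 bases before the start are given for 6 of the genes, 5' to 3' on the strand of the gene, from the mm9 genome. Capitals mark matches, on either strand, to an AP-1 motif (TGANTCA), a C/EBP motif (TTGCNNAA), a PU.1 motif (GAGGAA, or TTCCTC on the other strand) and a TATA box (TATAAA). The first 3 genes had the greatest H3K27Ac changes of the 8, the next 2 are cluster genes with smaller changes, and Mmp3 is a cluster gene below the 2-fold limit used here.
Mmp8 (chr9:7558179-7558428, + strand): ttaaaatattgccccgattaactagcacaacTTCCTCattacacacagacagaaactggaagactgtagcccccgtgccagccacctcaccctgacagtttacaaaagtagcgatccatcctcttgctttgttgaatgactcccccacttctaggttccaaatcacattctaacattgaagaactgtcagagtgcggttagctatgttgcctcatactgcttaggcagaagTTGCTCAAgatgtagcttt
Mmp12 (chr9:7344131-7344380, + strand): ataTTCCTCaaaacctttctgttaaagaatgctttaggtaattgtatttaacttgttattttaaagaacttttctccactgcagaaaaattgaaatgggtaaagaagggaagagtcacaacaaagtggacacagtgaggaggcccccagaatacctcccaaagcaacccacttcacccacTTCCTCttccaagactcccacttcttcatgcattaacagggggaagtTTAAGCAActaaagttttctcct
Mmp19 (chr10:128227759-128228008, + strand): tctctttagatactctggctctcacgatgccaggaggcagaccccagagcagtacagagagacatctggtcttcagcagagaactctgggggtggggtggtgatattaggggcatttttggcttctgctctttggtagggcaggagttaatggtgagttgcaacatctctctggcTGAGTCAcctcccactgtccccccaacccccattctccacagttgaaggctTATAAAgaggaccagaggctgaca
Mmp13 (chr9:7272264-7272513, + strand): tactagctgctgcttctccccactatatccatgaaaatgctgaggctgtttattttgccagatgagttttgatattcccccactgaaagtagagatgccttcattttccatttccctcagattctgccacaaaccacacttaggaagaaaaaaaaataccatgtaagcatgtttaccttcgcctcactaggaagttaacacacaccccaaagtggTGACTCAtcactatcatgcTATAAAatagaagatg
Mmp10 (chr9:7502102-7502351, + strand): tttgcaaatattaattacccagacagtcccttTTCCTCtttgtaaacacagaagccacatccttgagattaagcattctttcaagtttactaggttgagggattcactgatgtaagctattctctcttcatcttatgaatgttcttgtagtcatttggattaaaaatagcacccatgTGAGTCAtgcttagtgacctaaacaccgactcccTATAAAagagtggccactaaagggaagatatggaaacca
Mmp3 (chr9:7445572-7445821, + strand): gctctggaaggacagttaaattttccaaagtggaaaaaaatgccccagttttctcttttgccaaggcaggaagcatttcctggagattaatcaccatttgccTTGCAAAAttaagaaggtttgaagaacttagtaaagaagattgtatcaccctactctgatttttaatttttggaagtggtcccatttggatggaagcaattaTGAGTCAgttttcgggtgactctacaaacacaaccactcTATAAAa

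The AP-1 motif was present at 4 of the 8 genes, Mmp3, Mmp10, Mmp13 and Mmp19, and in 6.01% of 22345 promoters of the same length. The same 4 genes held a match to the TATA box letters, found in 12.3% of all promoters. In Mmp19 the AP-1 match lay from base -75 to -69 and the TATA match from -24 to -19, counting from -1 at the base before the start. The TATA match lay from -39 to -34 in Mmp10, from -16 to -11 in Mmp13 and from -7 to -2 in Mmp3. Whether these matches act as TATA boxes was not tested. The C/EBP motif was present at Mmp3, Mmp8 and Mmp12 (9.17% of all promoters) and the PU.1 motif at Mmp8, Mmp10 and Mmp12 (23.1% of all promoters). Mmp8 and Mmp12 thus held a C/EBP and a PU.1 match and neither an AP-1 nor a TATA match, while Mmp9 and Mmp14 held none of the 4 in this window. No pair of matches overlapped in the sequences shown. Mmp3 and Mmp10 both held AP-1 and TATA matches, while their marks, given below, differed. The matches were not particular to the 8 genes. In the same cluster Mmp7 held all 4 motifs, and Mmp1a, Mmp1b and Mmp20 held AP-1 and TATA matches. The H3K27Ac counts of Mmp7, Mmp1a, Mmp1b and Mmp20, given below, also differed.

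All libraries of a mark were brought to the same number of tags, 15216488 for H3K27Ac, 10913733 for H3K4Me1 and 15338280 for H3K27Me3, and tags were counted in 3 kb centred on each start. The identity of the cells was checked on marker genes. H3K27Ac at 48 hpi was at least 2-fold lower than at 0 h at 8 of 8 B cell genes and higher at 7 of 7 macrophage genes, including Itgam (10 to 94 tags) and Lyz2 (121 to 715 tags). It was higher at 3 of 5 neutrophil genes (Elane, Camp and S100a8) and lower at none of them, while the neutrophil genes Mpo and Ltf stayed at 6 tags or fewer at 0 h and 48 hpi. Of 4 T cell genes none passed the limit, of 3 fibroblast genes Pdgfrb was higher, and of 3 genes used in every cell Rpl13a was lower. The H3K27Ac libraries of 0 h and 3 hpi stood apart. They held 523 and 380 tags in a 90 kb segment of the immunoglobulin heavy chain diversity region on chromosome 12, where the other 13 libraries held 0 to 4. At 0 h the H3K4Me1 and H3K27Me3 libraries held 0 and 4 tags there. The genome means per mappable 3 kb window were 18.3 tags for H3K27Ac, 13.1 for H3K4Me1 and 18.4 for H3K27Me3. Whether the cells of these libraries differed in the DNA of this segment was not tested. The H3K27Ac libraries of 0 h and 3 hpi enter the H3K27Ac comparisons from 0 h, so values from 12 hpi on are also given. The heavy chain counts differed between the H3K27Ac libraries of 3 and 12 hpi. The changes of the neutrophil genes and of the metalloproteinase genes between 0 h and 48 hpi include that step. The part of the neutrophil genes and of the heavy chain tags in the results was not tested. More cells with a mark and more mark per cell cannot be told apart.

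Acetylation was higher after induction at 6 of the 8 starts. H3K27Ac at 48 hpi was at least 2-fold higher than at 0 h (tags plus 5) at Mmp8, Mmp9, Mmp10, Mmp12, Mmp13 and Mmp19 and lower at none, against 5.32% of all protein-coding starts higher and 9.39% lower. The median log2 change over the 8 starts was 2.14, against -0.14 over all starts. At 3 hpi 4 starts were already higher (background 4.16%), all of them in the cluster: Mmp8, Mmp10, Mmp12 and Mmp13. At 12 hpi 5 were higher (4.39%), with Mmp19 added, and at 24 hpi again 5 (4.72%), with Mmp9 added and Mmp10 at 1.94-fold. The start was enriched for H3K27Ac at 4 of the 8 genes at 0 h (46.3% of all starts) and at 7 at 48 hpi (47.2%), Mmp3 being the exception. For H3K27Me3 it was enriched at 2, Mmp9 and Mmp19, at 0 h (16.3%) and at 0 of 8 at 48 hpi (18.6%). Neither was called lower at 48 hpi. Mmp9 went from 41 to 21 tags and Mmp19 from 36 to 30, against a limit of enrichment of 34.

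**Figure D1:**
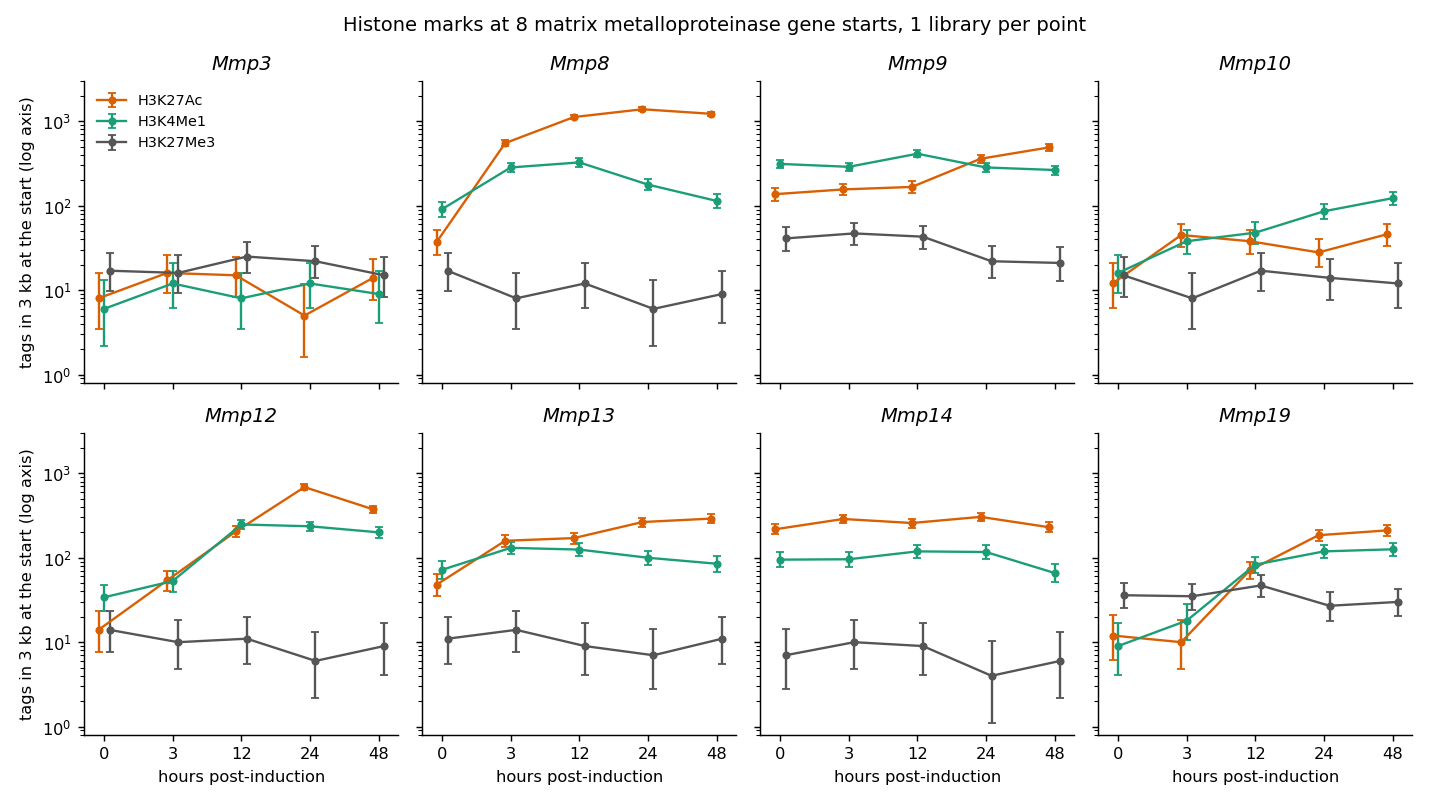
Tags in 3 kb at the start of each gene (vertical log axis) against hours post-induction, for 3 marks, 1 library per point, with exact Poisson 95% intervals of the count. Mmp8 reached 1389 H3K27Ac tags at 24 hpi from 37 at 0 h, whereas Mmp3 stayed between 5 and 16.

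Mmp8 and Mmp13 encode collagenases, the enzymes that make the first cut in fibrillar collagen. Mmp8 (ENSMUSG00000005800, chr9:7558429-7568486, + strand) had 37, 552, 1123, 1389 and 1227 H3K27Ac tags at 0, 3, 12, 24 and 48 h. At equal total tags the change came early. Of the change between 0 h and 48 hpi, 43.3% was present by 3 hpi and 91.3% by 12 hpi. Scaling by shared bins, those enriched at every time, divides the counts at 24 and 48 hpi by 0.985 and 0.752. The shares were not recomputed under it. The log2 change at 48 hpi was 4.87, with an interval of the tag ratio from 4.58 to 5.56, and 38 of all starts had a larger one. At 48 hpi only 10 protein-coding starts had more H3K27Ac tags than Mmp8.

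H3K4Me1 at Mmp8 took another course. It had 91, 284, 326, 178 and 114 tags, at least 2-fold higher than 0 h at 3 and 12 hpi, and 0.31 on the log2 scale at 48 hpi (interval -0.09 to 0.74). The start was thus enriched for H3K4Me1 at every time (enriched meaning 27 tags or more for this mark, a count with a Poisson chance under 0.001 at the genome mean), and the gain seen at 12 hpi was not present at 48 hpi. H3K27Me3 stayed between 6 and 17 tags, below its limit of enrichment of 34.

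Mmp13 (ENSMUSG00000050578, chr9:7272514-7283333, + strand) had 48, 159, 171, 265 and 291 H3K27Ac tags. The count at 0 h was above the limit of enrichment for this mark, 34 tags, and the log2 change at 48 hpi was 2.48 (interval 2.16 to 3.07). H3K4Me1 at Mmp13 had 72, 131, 125, 100 and 85 tags and passed the 2-fold limit at no time. As at Mmp8, the highest H3K4Me1 counts came before the highest H3K27Ac counts.

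Mmp3 and Mmp10 encode stromelysins, which cut proteoglycans and other matrix proteins and can switch on other metalloproteinases. Mmp10 (ENSMUSG00000047562, chr9:7502352-7510238, + strand) had 12, 45, 38, 28 and 46 H3K27Ac tags, a log2 change of 1.58 at 48 hpi (interval 1.0 to 2.99). H3K4Me1 moved more, with 16, 38, 48, 86 and 123 tags and a log2 change of 2.61 (interval 2.19 to 3.79). Unlike at Mmp8 and Mmp13, H3K4Me1 was highest at the last time. At equal total tags H3K27Ac was below its limit of 34 tags at 0 h and 24 hpi and above it at the other times. Scaling by background bins, those enriched at no time, divides the H3K27Ac counts at 24 hpi by 0.678. The place of Mmp10 at 24 hpi against the limits thus depends on the scaling.

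Mmp3 (ENSMUSG00000043613, chr9:7445822-7455972, + strand), which lies between Mmp1b and Mmp1a in the same cluster, had 8, 16, 15, 5 and 14 H3K27Ac tags. It had 6, 12, 8, 12 and 9 H3K4Me1 tags and 15 to 25 H3K27Me3 tags. No mark was enriched at this start at any time, and no change passed the 2-fold limit; the interval of the H3K27Ac tag ratio at 48 hpi ran from -0.55 to 2.27 on the log2 scale. Of the 3000 positions counted there, 93.1% had a unique 36-base sequence.

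Mmp12 encodes the macrophage elastase. Its start (ENSMUSG00000049723, chr9:7344381-7369499, + strand) had 14, 54, 205, 687 and 375 H3K27Ac tags and was not enriched at 0 h. The log2 change was 5.19 at 24 hpi and 4.32 at 48 hpi (intervals 4.86 to 6.50 and 3.98 to 5.63), so the highest count came at 24 hpi. H3K4Me1 had 34, 53, 248, 236 and 200 tags. The intervals of its counts at 12 and 24 hpi overlapped (218 to 281 and 207 to 268), so which was highest is not settled. At 12 hpi H3K27Ac had made 52.9% of its change to 48 hpi. A further annotated start 2993 bases downstream had 8, 31, 88, 350 and 243 H3K27Ac tags and the same order of times. H3K27Me3 at the gene start stayed between 6 and 14 tags.

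Mmp9 encodes gelatinase B, which cuts denatured collagen and basement membrane collagen. Its start (ENSMUSG00000017737, chr2:164766280-164781350, + strand) had 137, 156, 167, 360 and 491 H3K27Ac tags. The change came late, with 8.47% of the change present at 12 hpi and 63% at 24 hpi, and the log2 change at 48 hpi was 1.80 (interval 1.57 to 2.13). The start was enriched for H3K27Ac and H3K4Me1 already at 0 h, and H3K4Me1 stayed between 265 and 413 tags. Only 18 of all starts had more H3K4Me1 tags than Mmp9 at 48 hpi. A further annotated start 7439 bases downstream took another course, with 11, 17, 14, 43 and 90 H3K27Ac tags and 12, 12, 56, 111 and 144 H3K4Me1 tags. Its H3K27Me3 had 40, 30, 60, 52 and 49 tags. At the first start H3K27Me3 had 41, 47, 43, 22 and 21 tags, above its limit up to 12 hpi and below it after, with a log2 change of -0.82 that did not pass the 2-fold limit in 3 kb and passed it in 1 kb (-1.10).

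Mmp19 is a secreted member outside the collagenase, stromelysin and gelatinase groups. Its start (ENSMUSG00000025355, chr10:128228009-128237880, + strand) had 12, 10, 71, 185 and 211 H3K27Ac tags. H3K4Me1 had 9, 18, 83, 119 and 126 tags. Neither was enriched at 0 h or 3 hpi and both were from 12 hpi on, with log2 changes at 48 hpi of 3.67 (interval 3.30 to 5.11) and 3.23 (interval 2.84 to 4.97). Among the 8 it was the start with H3K27Me3 above its limit and H3K27Ac below its limit at 0 h. The H3K27Me3 counts were 36, 35, 47, 27 and 30.

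Mmp14 encodes a membrane-anchored metalloproteinase that can switch on other members at the cell surface. Its start (ENSMUSG00000000957, chr14:55050441-55060095, + strand) had 217, 288, 258, 305 and 230 H3K27Ac tags. It was enriched at every time and passed the 2-fold limit at none, with a log2 change of 0.08 at 48 hpi and an interval from -0.19 to 0.36. H3K4Me1 had 95, 96, 119, 117 and 66 tags and a log2 change of -0.49 (interval -1.0 to -0.06). Counted in 1 kb at the start, the change was -1.45, past the 2-fold limit, as at 7.34% of all starts lower in H3K4Me1 in 1 kb. H3K27Me3 stayed at 4 to 10 tags. The promoter of Mmp14 also differed in base content, with 55.6% G and C and 10 CG pairs in 250 bases, against 37.6% to 52.8% and 0 to 4 in the other 7 genes.

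Set against all starts, the H3K27Ac changes of Mmp8 and Mmp12 were greater than 99.8% of starts each and that of Mmp19 greater than 99.6%. Mmp13, Mmp9 and Mmp10 followed at 98.9%, 98.2% and 97.7%, Mmp3 at 87.8% and Mmp14 at 67.6%. In H3K4Me1, 3 of 8 starts were at least 2-fold higher at 48 hpi, Mmp10, Mmp12 and Mmp19, and none lower, against 3.30% higher and 9.70% lower among all starts. The median H3K4Me1 change was 0.33, against -0.26 over all starts. At 3 hpi 2 of 8 were higher in H3K4Me1 (background 1.63%) and at 12 hpi 4 (3.19%). In H3K27Me3 none of the 8 was higher (1.51% of all starts) or lower (1.96%) at 48 hpi, with a median of -0.23.

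**Figure D2:**
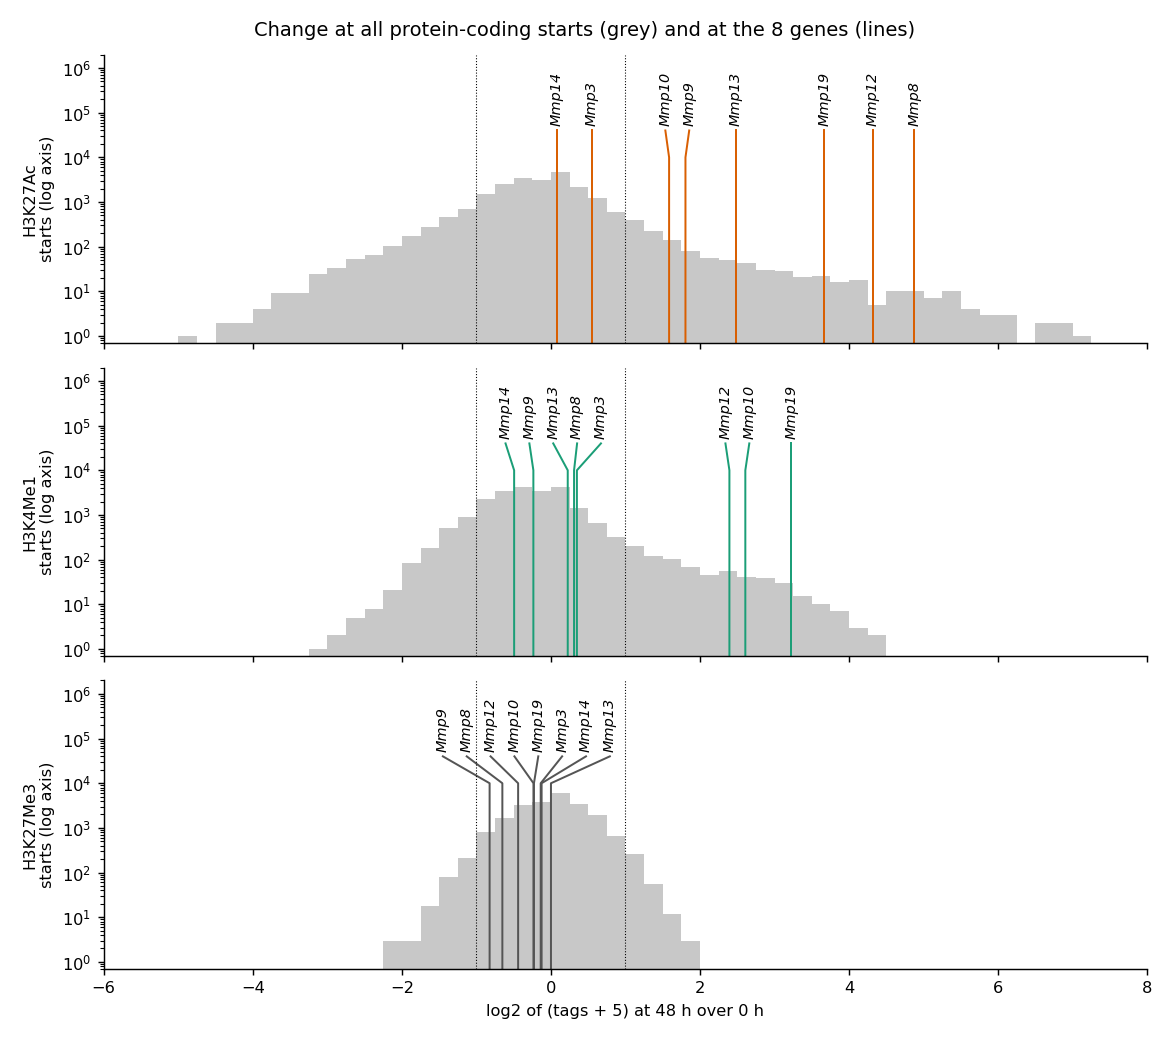
Number of protein-coding starts (grey bars, vertical log axis) by log2 change in tags plus 5 from 0 h to 48 hpi, for 3 marks, with the 8 genes as lines and the 2-fold limits dotted. For H3K27Ac 6 of the 8 lines lie right of the upper limit, for H3K4Me1 3, and for H3K27Me3 none.

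From 12 to 48 hpi, without the 2 H3K27Ac libraries that stood apart, 2 of the 8 starts were at least 2-fold higher in H3K27Ac (background 2.38%) and none was lower (4.69%). These were Mmp9 (167 to 491 tags) and Mmp19 (71 to 211 tags), and the median log2 change was 0.50. Mmp8, with 1123 tags at 12 hpi, had by then made most of its change.

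Across the cluster, 157 consecutive 3 kb windows (471 kb, from 20 kb before Mmp13 to 20 kb after Mmp7) were counted. Compared with 0 h, H3K27Ac was at least 2-fold higher at 3, 12, 24 and 48 hpi in 78, 59, 45 and 62 windows, against 6.14%, 5.18%, 4.18% and 7.37% of all mappable windows of the genome. These are 49.7%, 37.6%, 28.7% and 39.5% of the windows. At the same times 0, 1, 2 and 6 windows were lower (2.23%, 2.96%, 9.28% and 5.05% of all windows). At 0, 3, 12, 24 and 48 h 13, 47, 42, 42 and 47 windows were enriched (6.32%, 6.46%, 7.38%, 7.68% and 9.27% of all windows). The cluster then held 3794, 14173, 15438, 20040 and 18534 H3K27Ac tags. From 3 to 24 hpi, at equal total tags, the number of windows called higher thus fell while the tags rose. Scaling by background bins divides the H3K27Ac counts at 3 and 24 hpi by 1.22 and 0.678. The numbers of windows at these times were not recomputed under it, so their order may depend on the scaling. H3K4Me1 was higher in 38 windows at 48 hpi and lower in 9 (5.34% and 9.48% of all windows), and H3K27Me3 in 4 and 2 (1.19% and 2.36%).

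**Figure D3:**
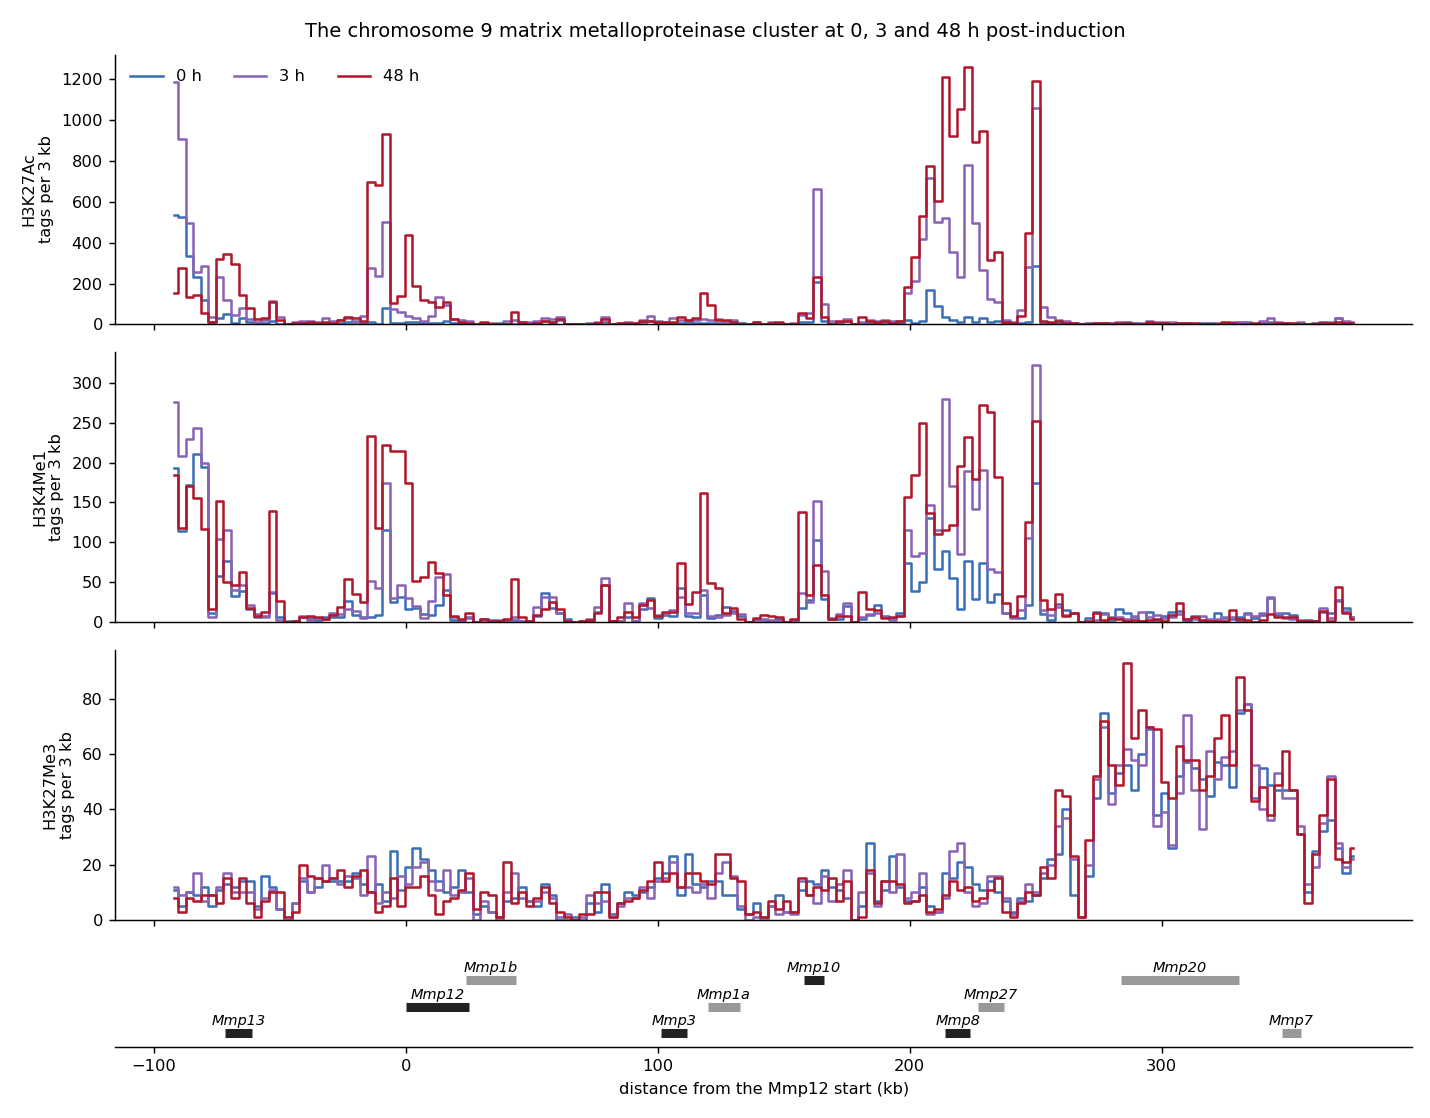
Tags per 3 kb window over the chromosome 9 cluster against distance from the Mmp12 start in kb, for 3 marks at 0, 3 and 48 h, with genes below (black, the 8 genes studied; grey, other family genes). H3K27Ac at 48 hpi peaks upstream of Mmp12 (935 tags) and over Mmp8 and Mmp27 (up to 1259 tags), and H3K27Me3 lies over Mmp20 and Mmp7.

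At 48 hpi the enriched H3K27Ac windows of the cluster formed 7 stretches of 2 or more windows. They were chosen by their H3K27Ac at that time, so their enrichment at 48 hpi follows from the choice, and their counts of enriched windows are given as a description. The longest, 39 kb from 198 to 237 kb past the Mmp12 start, held Mmp8 and much of Mmp27 and the ground before Mmp8. It had 487, 4895, 7300, 9885 and 9391 H3K27Ac tags, with 4 of its 13 windows enriched at 0 h and 13 from 3 hpi on. H3K4Me1 in the same stretch had 761, 1734, 3285, 2629 and 2400 tags and was enriched in 11 of 13 windows at 0 h (10.3% of all windows).

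Within it the window with most H3K27Ac at 48 hpi was chr9:7566001-7569000, whose middle lies in an exon of Mmp8 and 3.9 kb before Mmp27. It had 35, 783, 990, 1288 and 1259 tags. The window at the Mmp8 start, chr9:7557001-7560000, had 34, 521, 1103, 1374 and 1214. Between them, chr9:7563001-7566000, in an intron of Mmp8 and 6.1 kb past its start, was highest at 48 hpi. It had 14, 232, 511, 785 and 1056 tags and a log2 change of 5.80 (interval 5.48 to 7.11). Scaling by shared bins divides the counts at 24 and 48 hpi by 0.985 and 0.752. Whether chr9:7566001-7569000 and chr9:7557001-7560000 were highest at 24 or 48 hpi thus depends on the scaling. At chr9:7572001-7575000 in Mmp27, where 79.4% of positions have a unique sequence, there were 32, 267, 622, 935 and 950 tags.

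A separate stretch began 243 kb past the Mmp12 start, between Mmp27 and Mmp20. Its main window, chr9:7593001-7596000, lies 23.1 kb past the Mmp27 start. It had 288, 1060, 1218, 1361 and 1193 H3K27Ac tags, a log2 change of 2.03 (interval 1.86 to 2.24). Its H3K4Me1 was 175, 322, 416, 314 and 252. This window was enriched for both marks before induction.

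The Mmp12 stretch ran from 15 kb before to 18 kb after the gene start (chr9:7329001-7362000). It had 182, 1511, 2255, 4139 and 3609 H3K27Ac tags and 303, 545, 1512, 1516 and 1454 H3K4Me1 tags, and 1 of its 11 windows was enriched for H3K27Ac at 0 h. That window, chr9:7335001-7338000, lies 7.9 kb before the start and had 81, 503, 636, 1040 and 935 tags. The 2 windows before it had few at 0 h: chr9:7329001-7332000 had 13, 277, 553, 857 and 697, and chr9:7332001-7335000 had 4, 239, 467, 749 and 681. In these 2 windows H3K4Me1 was 7 and 9 tags at 0 h, 52 and 43 at 3 hpi and 253 and 215 at 12 hpi. At 3 hpi each of these 3 upstream windows held over 200 H3K27Ac tags, and the window at the start (chr9:7344001-7347000) held 39. The 3 upstream windows thus held more H3K27Ac at 3 hpi than the start, which was itself enriched, with 54 tags in the 3 kb centred on it. At that time enriched windows ran without a gap over chr9:7326001-7347000, the start window included.

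H3K27Ac in the window at the Mmp12 start reached 223 tags at 12 hpi and 800 at 24 hpi. The gene body did not follow 1 course. In the window centred 4.1 kb past the start the counts were 13, 30, 31, 100 and 187, and in the one centred 7.1 kb past it they were 7, 17, 16, 45 and 121. Both were highest at 48 hpi, when the start window was at 439, below its count at 24 hpi. Further along, chr9:7353001-7356000 had 8, 40, 37, 69 and 110 tags, chr9:7356001-7359000 had 9, 135, 70, 72 and 83, and chr9:7359001-7362000 had 17, 96, 75, 60 and 111. The last 2 of these thus held more tags at 3 hpi than the start window did.

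At the other end of the cluster, acetylation at 48 hpi was lower before Mmp13 and higher at Mmp13 than at 0 h. The stretch from 93 to 78 kb before the Mmp12 start had 1746, 3141, 1967, 1931 and 763 H3K27Ac tags, a log2 change of -1.19 at 48 hpi (interval -1.32 to -1.07). It lies at the edge of the counted windows, so where it ends is not known from them. Its first window, chr9:7251001-7254000, 20 kb before the Mmp13 start, had 535, 1188, 598, 551 and 153 tags, the most of any cluster window at 0 h. The next, chr9:7254001-7257000, had 525, 909, 700, 728 and 278. H3K4Me1 over the stretch stayed between 745 and 1156 tags, enriched in 5 of 5 windows at every time.

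The stretch over Mmp13 itself had 134, 503, 462, 689 and 1187 H3K27Ac tags, so its count at 48 hpi was above that of the stretch before it, and at 0 h below it. The gene body took part: the window centred on the intron at chr9:7275001-7278000 had 9, 44, 39, 121 and 295 tags. A different course was seen inside Mmp10. The window chr9:7506001-7509000, in an intron of Mmp10, had 206, 664, 394, 369 and 231 H3K27Ac tags and was highest at 3 hpi, while the Mmp10 start given above stayed at 46 tags or fewer.

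**Figure D4:**
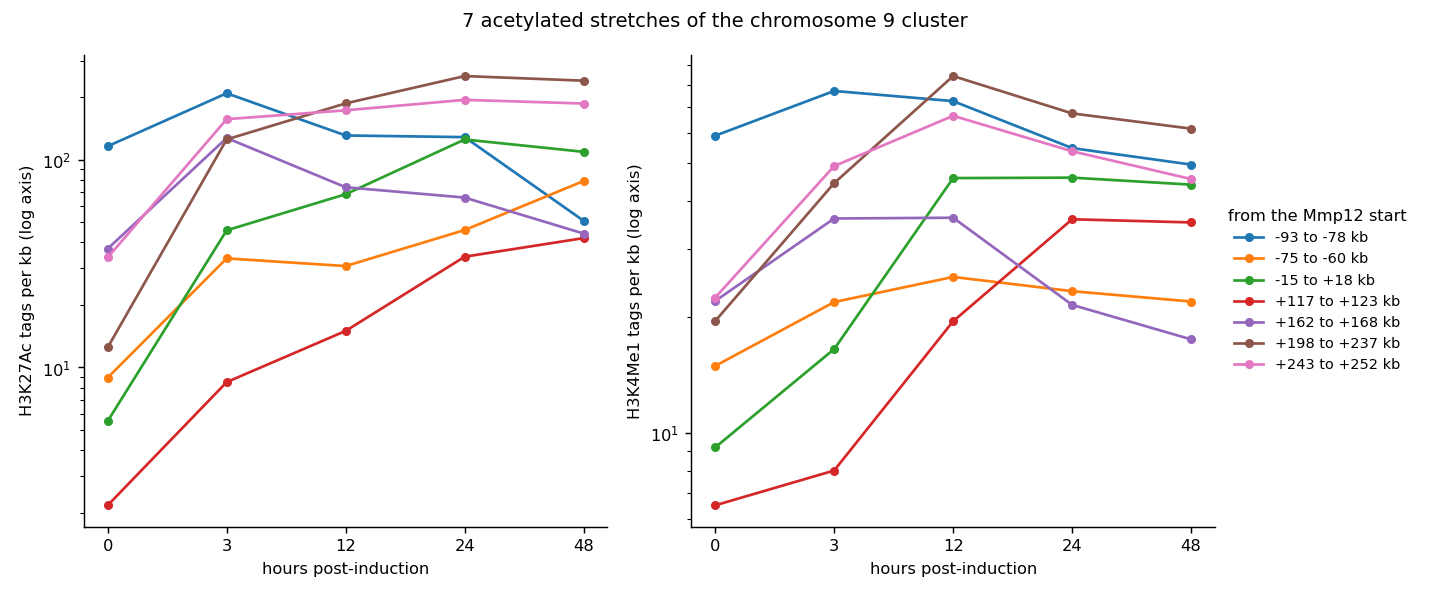
H3K27Ac (left) and H3K4Me1 (right) tags per kb (log axes) against hours post-induction for the 7 acetylated stretches of the chromosome 9 cluster, named by distance from the Mmp12 start, 1 library per point. The stretch before Mmp13 (-93 to -78 kb) and that in Mmp10 (162 to 168 kb) were highest in H3K27Ac at 3 hpi, the other 5 at 24 or 48 hpi.

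The far end of the cluster kept another mark. A run of 27 windows (81 kb, chr9:7617001-7698000) over Mmp20, an enamel enzyme, and Mmp7, an epithelial enzyme, had 1423, 1424, 1656, 1516 and 1621 H3K27Me3 tags. The run was chosen by its enrichment at 48 hpi, where 27 of 27 windows follow from the choice. At 0, 3, 12 and 24 h 26, 25, 26 and 26 of them were enriched for H3K27Me3 (14.1%, 13.9%, 14.6% and 15.5% of all windows), and 0 were enriched for H3K27Ac at any time, with 80 to 251 H3K27Ac tags in all. As counted, it began between the last acetylated stretch and the Mmp20 start. Just before it, chr9:7611001-7614000 and chr9:7614001-7617000 had 3.6% and 47.2% unique positions, and chr9:7602001-7608000 was also enriched at 48 hpi (92 tags). Past its end, chr9:7701001-7704000 had 23.8% unique positions, and chr9:7707001-7713000 was enriched at 48 hpi (89 tags). Sequence that is not unique thus leaves the bounds of the run unsettled. The 5 cluster genes among the 8, Mmp3, Mmp8, Mmp10, Mmp12 and Mmp13, lay outside it. None was enriched for H3K27Me3 at its start at any time, Mmp3 without H3K27Ac enrichment included.

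Around Mmp9, 12 of 19 windows were at least 2-fold higher in H3K27Ac at 48 hpi and none was lower (7.37% and 5.05% of all windows). At 24 hpi 8 were higher and 4 lower (4.18% and 9.28%), and at 3 hpi 1 was higher and 1 lower (6.14% and 2.23%). The highest window, chr2:164766001-164769000, centred 1.2 kb past the start in an intron, had 249, 252, 354, 603 and 752 tags. The next, chr2:164769001-164772000, had 47, 42, 84, 129 and 192. Upstream, chr2:164763001-164766000 had 79, 120, 74, 199 and 156, a log2 change of 0.94. The neighbour Slc12a5, a chloride transporter gene of neurons, also passed the limit, with 57 H3K27Ac tags at its start at 0 h and 151 at 48 hpi. H3K27Me3 was enriched in 13, 7, 13, 12 and 15 of the 19 windows at 0, 3, 12, 24 and 48 h, against 14.1%, 13.9%, 14.6%, 15.5% and 15.5% of all windows.

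Around Mmp19, 9 of 17 windows were higher in H3K27Ac at 48 hpi and none lower (7.37% and 5.05% of all windows). The most tags at 48 hpi lay upstream of the gene: chr10:128217001-128220000, 9.5 kb before the start, had 7, 12, 119, 410 and 423 tags. Next to it, chr10:128214001-128217000, 12.5 kb before the start, had 34, 31, 171, 303 and 368. Their counts were lower at 0 h and 3 hpi than at 24 and 48 hpi, as at the start itself. Unlike the start, the window 12.5 kb before it reached the H3K27Ac limit of 34 tags at 0 h. Both windows were then enriched for H3K4Me1, with 32 tags at 9.5 kb and 60 at 12.5 kb, and the start was not. The window at 9.5 kb also held 51 H3K27Me3 tags at 0 h. The window shared by 1110012D08Rik and Dnajc14, chr10:128241001-128244000, had 527, 384, 558, 636 and 396 tags, a log2 change of -0.41, below the 2-fold limit. The window over Dnajc14, Ormdl2 and Sarnp, chr10:128256001-128259000, stayed between 83 and 122.

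Around Mmp14, 1 of 18 windows was higher in H3K27Ac at 48 hpi and 3 were lower (7.37% and 5.05% of all windows), the former being 5.56% and near the background. The higher one, chr14:55053001-55056000 in an intron of Mmp14, had 17, 6, 36, 52 and 77 tags. Of the lower ones, 1 lay past the gene and 2 lay together at and beside Slc7a7. The window chr14:55080001-55083000, just before the start of Lrp10, a receptor gene, had 515, 367, 336, 387 and 239 tags and chr14:55032001-55035000, at the start of Slc7a7, an amino acid transporter gene, had 402, 185, 227, 206 and 152. The window with most tags at 48 hpi, chr14:55044001-55047000 at the start of Mrpl52, a mitochondrial ribosome gene, had 484, 555, 400, 544 and 418, and the Mmp14 start window, chr14:55050001-55053000, had 209, 281, 281, 391 and 266.

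**Figure D5:**
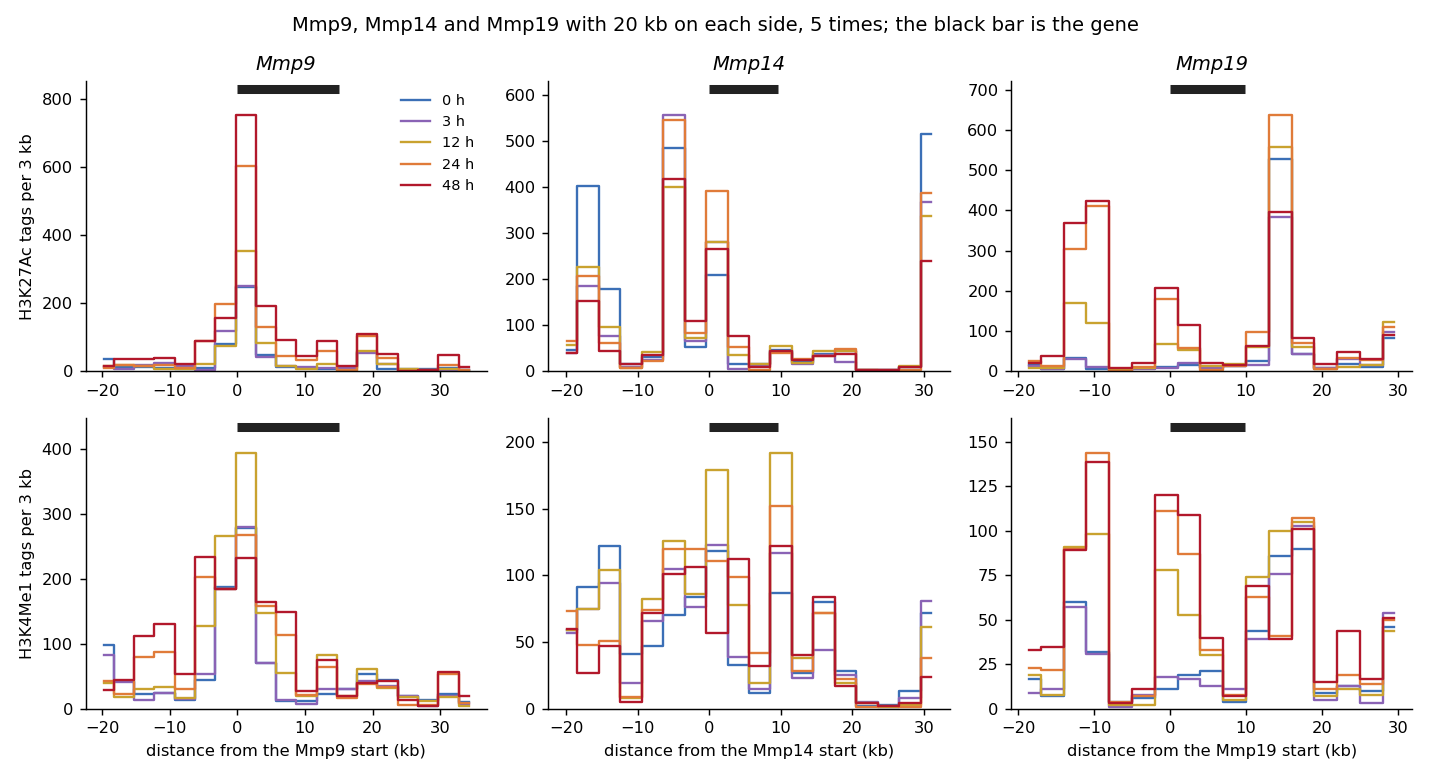
H3K27Ac (top) and H3K4Me1 (bottom) tags per 3 kb window against distance in kb from the start of Mmp9, Mmp14 or Mmp19, 5 times, 1 library per line, the black bar being the gene. At 48 hpi the start window of Mmp9 reached 752 H3K27Ac tags and the windows 9.5 and 12.5 kb before Mmp19 reached 423 and 368, while the Mmp14 start window was at 266.

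Over the 4 regions together, 84 of 211 windows were higher and 9 lower in H3K27Ac at 48 hpi (7.37% and 5.05% of all mappable windows), 53 and 17 in H3K4Me1 (5.34% and 9.48%), and 4 and 4 in H3K27Me3 (1.19% and 2.36%). The windows lower in H3K27Ac and in H3K4Me1 and both counts in H3K27Me3 were near the background. At 48 hpi 82 windows were enriched for H3K27Ac, 94 for H3K4Me1 and 48 for H3K27Me3, against 9.27%, 12.2% and 15.5% of the genome. In 25 of the 211 windows fewer than 40% of positions had a unique sequence, so tags there are undercounted.

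Among the other 15 family genes, H3K27Ac at 48 hpi was higher at 4, Mmp27, Mmp1a, Mmp1b and Mmp23, and lower at none, against 5.32% higher and 9.39% lower over all starts. Their median log2 change was 0.24, against -0.14 over all starts, and the difference between these genes and the 8 was not tested. Of these 4, all but Mmp23 lie in the chromosome 9 cluster. Mmp27 had 24, 541, 714, 1015 and 1074 tags, and its 3 kb lies in the long stretch with Mmp8. Mmp1a had 8, 22, 52, 163 and 196 and Mmp1b 4, 22, 16, 23 and 62, with 67.2% and 61.9% of positions unique, so that tags there are undercounted. Mmp23 had 9, 7, 8, 14 and 29. Mmp11 was the only other family gene with over 100 tags at any time, with 1141, 633, 610, 432 and 689, and Mmp20 and Mmp7 had at most 11.

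Genes that hold the enzymes in check or switch them on were counted in the same way. Of 5 inhibitor genes, 1, Timp1, was higher in H3K27Ac at 48 hpi (4, 2, 12, 25 and 35 tags; 5.32% of all starts were higher), and Timp2, Timp3, Timp4 and Reck had at most 12 tags at any time. Timp1 and Timp2 were also higher in H3K27Me3 (2 of 5, against 1.51% of all starts), with 11 tags at 0 h and 35 at 48 hpi for Timp1 and 13 and 31 for Timp2. Of 4 genes for proteases and a receptor that act in activation, 3 were higher in H3K27Ac, against the same 5.32%. Furin, which cuts the precursors of membrane-type members, had 11, 27, 78, 196 and 207 tags. Plaur, the urokinase receptor, had 315, 386, 807, 1065 and 744, and Plat, tissue plasminogen activator, had 10, 14, 16, 23 and 42. Plau, urokinase itself, had 280, 306, 302, 333 and 169.

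For the 6 genes past the 2-fold limit in H3K27Ac, the 5 starts most like each were found by distance over 15 values, 3 marks at 5 times, on the log2 scale relative to the genome mean. For Mmp8 they were Mmp27 (1.69), Ndel1 (1.91), Ehd1 (2.35), 4632428N05Rik (2.96) and Sh2d6 (3.01), with its neighbour in the cluster first. For Mmp12 they were Gm17497 (1.83), Wdr92 (1.96), Orm2 (2.09), A930018M24Rik (2.21) and Ugt1a6a (2.30). The distances for Mmp19 were the lowest of the 6 genes at the first place, with Gm10277 (1.17), C5ar1 (1.56), C3ar1 (1.83), Itgax (1.89) and Dgkz (1.93), of which C5ar1 and C3ar1 are complement receptors and Itgax an integrin of myeloid cells. For Mmp13 they were Abcc1 (1.38), 6030469F06Rik (1.77), Ccdc132 (1.79), Spag1 (1.84) and Dnajb5 (1.85). Mmp10 was most like Brd3 (1.64), Gm17227 (1.87), Klhl33 (1.96), Ssh2 (2.08) and Fam131a (2.12). Mmp9, whose nearest start was the farthest of the 6, was most like P2ry6 (2.45), Gm9875 (2.56), A430084P05Rik (2.77), Csf1r (2.84) and Il21r (2.85). Of these Il21r had 337, 125, 168, 229 and 157 H3K27Ac tags and so fell from 0 h to 48 hpi, whereas Mmp9 rose. All 15 values of a start come from the same libraries as those of the others, so these distances describe the starts and carry no p-value.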

How the data were processed

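The authors deposited, for each library, the positions of 36 bp tags on mm9 without strand, 11041458 to 31557475 per library. They had aligned reads with Eland or Bowtie and removed identical tags and tags without a unique place; which aligner served which library is not given in the sources used here. In the files, positions held at most 1 or 2 tags, except in the H3K4Me1 libraries of 0 h and 48 hpi (up to 205 and 135). These tag positions (chromosome, start and end) are the only values the deposited files hold. Whether starts count from 0 or 1 is not stated; they were read as counting from 0.

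Tags on chromosomes 1 to 19 and X were kept once per position, thinned to the smallest library of each mark and counted at their middle, in 3 kb centred on the start of each gene record and in 3 kb windows over each gene plus 20 kb. A call was a change of at least 2-fold in tags plus 5. A count was enriched when its Poisson chance under the mean of mappable windows was below 0.001 (34, 27 and 34 tags for H3K27Ac, H3K4Me1 and H3K27Me3). Intervals of counts are exact Poisson 95% intervals, and those of log2 ratios are exact binomial 95% intervals of the tag ratio without the added 5. Both cover counting error only, and with 1 library per mark and time no p-value was computed. The calls, intervals and limits were checked on simulated data.

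The 8 genes and the other lists were chosen with earlier results of these data known. All 8 are named, with the windows of most H3K27Ac at 0 h and 48 hpi and the nearest starts by distance over 15 values; windows beside these, and single starts among the lists, were picked after their values were seen. Alternatives were other depths, scalings, window sizes and grids, added counts, background models, margins and times. Python 3.11.15, numpy 2.4.6, scipy 1.17.1, pandas 2.3.3, numba 0.67.0, matplotlib 3.10.9 and samtools 1.23.1 were used.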

Additional observations from a re-analysis of the deposited data

How the results depend on the processing

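The count of 6 of 8 starts higher in H3K27Ac at 48 hpi was 6 under each of the 10 alternatives to the counting and scaling, and 5, 5, 4 and 2 under the exchanges of times given below. Under those 10 the lowest values of the called genes were 1.12 for Mmp10, 1.32 for Mmp9, 1.80 for Mmp13, 3.23 for Mmp19, 4.08 for Mmp12 and 4.53 for Mmp8, and the highest were 0.86 for Mmp3 and 0.60 for Mmp14, so the same 6 genes were called each time. No paired analysis was possible because there were no replicates, 1 library standing for each mark at each time. With 1 kb at the start the H3K27Ac median was 1.56, and 1 start was lower in H3K4Me1 (Mmp14, -1.45) and 1 in H3K27Me3 (Mmp9, -1.10). With 1 tag added in place of 5, windows lower were 18 for H3K27Ac, 27 for H3K4Me1 and 22 for H3K27Me3, and 15 were higher in H3K27Me3. Among all starts this setting gave 18.7%, 24.9% and 7.34% lower, and 5.83% higher in H3K27Me3. Its share of all starts higher in H3K27Ac was the largest of the 10 alternatives. That share was above the 9.41% under scaling by shared bins and the 5.32% of the main setting. Scaling by shared bins moved the median of all starts in H3K27Ac from -0.14 to 0.10, with 9.41% higher and 5.06% lower, and left 3 windows lower in H3K27Ac and 0 higher in H3K27Me3. Scaling by background bins moved the H3K4Me1 median of all starts from -0.26 to 0.04, with 7.02% higher and 4.30% lower, and left 7 windows lower. All distinct tags, scaled, gave 0 windows higher in H3K27Me3. Genes plus 50 kb gave 19 windows lower in H3K27Ac and 30 in H3K4Me1, and a shifted grid gave 7 lower in H3K27Me3. Against a local background 37, 50 and 13 windows were enriched for H3K27Ac, H3K4Me1 and H3K27Me3. The window counts under these alternatives are given without the share of all windows and are not read as a result about the genes. The cause of these differences was not tested.

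The 4 exchanges of times were chosen after seeing the data. With 24 h in place of 48 h 5 starts were higher in H3K27Ac, the H3K27Ac median was 1.86, the window 20 kb before Mmp13 had a log2 change of 0.042, and in H3K27Me3 1 start (Mmp8) was lower, 1 window higher and 13 lower. Among all starts 4.72% were higher in H3K27Ac and 3.76% lower in H3K27Me3. Of all windows 0.891% were higher and 2.11% lower in H3K27Me3. With 12 h in place of 48 h 5 starts were higher in H3K27Ac, the H3K27Ac median was 1.54 and the H3K27Me3 median 0.10, the same window was at 0.16, the window chr10:128241001-128244000 was at 0.21 in H3K4Me1, windows lower were 2, 11 and 2 for H3K27Ac, H3K4Me1 and H3K27Me3, and 1 was higher in H3K27Me3. Among all starts 4.39% were higher in H3K27Ac. Of all windows 2.96%, 7.68% and 1.72% were lower in the 3 marks, and 0.768% higher in H3K27Me3. With 3 h in place of 0 h 4 starts were higher in H3K27Ac, the medians were 1.0 for H3K27Ac and -0.20 for H3K4Me1, 1 start was lower in H3K4Me1 (Mmp8) and 1 in H3K27Me3 (Mmp9), 40 windows were higher and 24 lower in H3K27Ac, and 1 higher and 8 lower in H3K27Me3. Among all starts 4.25% were then higher and 12.0% lower in H3K27Ac, with 11.6% lower in H3K4Me1 and 1.69% lower in H3K27Me3. With 12 h in place of 0 h, which leaves out both H3K27Ac libraries with heavy chain tags, 2 starts were higher in H3K27Ac with a median of 0.50, 36 windows were higher, and the window chr9:7593001-7596000 was at -0.030. H3K4Me1 then had 1 start higher (Mmp10) and 1 lower (Mmp8), a median of -0.42, 20 windows higher and 8 lower, and changes of -0.30 at the Mmp12 start and -0.71, -0.57 and -0.0052 in the windows chr9:7566001-7569000, chr9:7563001-7566000 and chr9:7572001-7575000. Among all starts 2.38% were higher in H3K27Ac, and 2.14% were higher and 7.08% lower in H3K4Me1. For the exchanges in place of 0 h the window counts are given without the share of all windows.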
